A study of Anolis carolinensis with 142 samples.

Results

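The 23 genes described here were more abundant at night than by day in the eye of the green anole (*Anolis carolinensis*), with little difference between night and day in brain or liver. They were chosen from the 26479 gene IDs of the count table by their measured levels. A member had a median of at least 2 CPM (the count scaled to a library total of 1000000) in eye and of at least 1 CPM in brain and in liver, with an eye median under 8 times each of the other medians. Its mean log2(CPM + 1) at Midnight exceeded that at Midday by at least 0.4 in eye, and lay within 0.15 of it, in either direction, in brain and liver. Only the 100 highest values of a t statistic in the eye (the difference over its standard error, without pooling the variances) were to be kept, and that limit was not reached. Levels let through 10823 genes, the ratio to brain and liver 9530 of these, and the narrow band in brain and liver 3176, of which 23 also passed in the eye.

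RNA came from 24 adult, wild-caught, wild-type green anoles, small lizards active by day, taken in the breeding season. The treatments were ALAN (artificial light at night; dissected at night), Midnight (dissected over the same night hours, without that light) and Midday (dissected by day), with 4 males and 4 females in each. Both night groups were handled under a red torch. There were 24 libraries each of eye, brain and liver, 23 each of dorsal and ventral skin, and 12 each of testes and ovary.

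The retina of vertebrates holds its own circadian clock. Photoreceptors renew their light-sensing membranes and shift their metabolism over the day, and the retina and the pineal gland make melatonin at night. A whole eye also contains pigment epithelium, lens, cornea, iris and blood vessels, so its RNA is a mixture, in which fewer cells of a type and less RNA per cell cannot be told apart. The brain samples contained the pineal gland. None of the 23 IDs could be paired with a gene name (0 IDs of the whole table matched the gene table used), so no role is given for any of them. Genes are referred to below by ID or by their rank, from 1 to 23, in this t in the eye.

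Library totals ran from 10826635 to 22008762 counts in eye, and the lowest count of any member in an eye library was 20, so no member's eye level rested on a handful of reads. The libraries also fell into 2 counting classes, told apart by the share of even numbers among the counts from 1 to 20. Under 50% of these were even in 42 libraries and over 50% in 100. In the eye the low class held 1 of 8 ALAN, 7 of 8 Midnight and 7 of 8 Midday libraries. Finally, 3 Midday eye libraries (male 1, female 2 and female 4) stood apart from the rest. Their median correlation with the other eye libraries was 0.922 to 0.955, against 0.963 to 0.978 for the other 21.

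The values that chose the genes are a description and carry no test. The Midnight minus Midday difference in the eye was 0.47 in the median on the log2(CPM + 1) scale, and 0.96 at most. Just inside the threshold a gene stood at 0.4038 and just outside it a gene stood at 0.3988. The t statistic lay between 1.57 and 5.48 and had a median of 2.87. The number selected depended on the threshold: at a threshold of 0.3 in the eye the rule would hold 70 genes, and at 0.2 it would hold 312. The mirrored rule, for genes higher at Midday in the eye, found 75. Within their own bands, the 23 genes had differences of -0.02 to 0.14 in brain, where 20 were above 0 (87.0%, beside 53.5% of the 3176 genes in the same band), and of -0.13 to 0.12 in liver, where 10 were above 0.

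Averaged over the 23 genes, the eye level had a lowest, median and highest value of 4.798, 4.97 and 5.03 in the 8 ALAN libraries on the log2(CPM + 1) scale. At Midnight these were 4.85, 5.04 and 5.15, and at Midday 4.10, 4.55 and 4.90. The Midday libraries were also the most scattered, with an SD of 0.30, beside 0.0753 under ALAN and 0.0878 at Midnight (n = 8 each). In this average 7 of 8 Midnight libraries stood above every Midday library, which is in part set by choosing the genes in these same libraries. The libraries that stood apart were at 4.10 (male 1), 4.44 (female 2) and 4.16 (female 4), and the other 5 Midday libraries at 4.41 to 4.90.

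**Figure D1:**
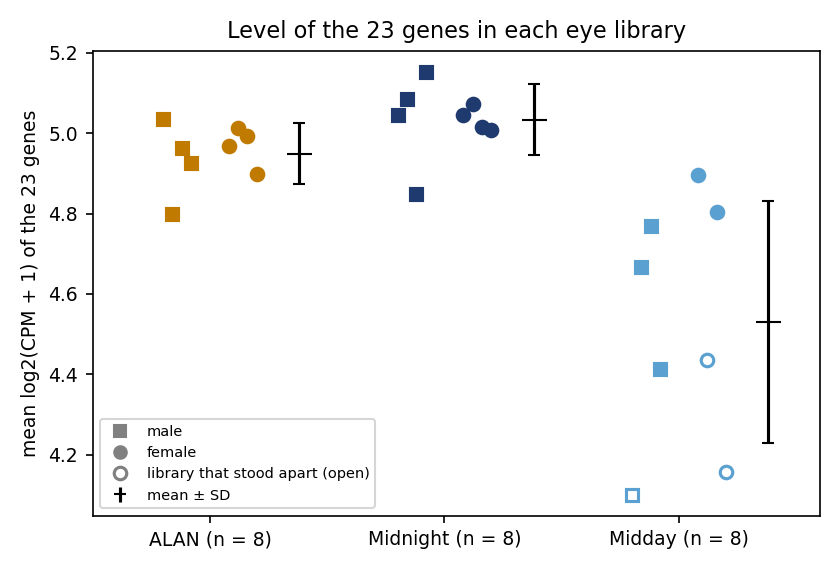
Mean log2(CPM + 1) of the 23 genes in each of the 24 eye libraries, by treatment, with males as squares, females as circles and the mean ± SD beside them. Open symbols mark the 3 Midday libraries that stood apart, at 4.10, 4.44 and 4.16, and the Midnight libraries lie between 4.85 and 5.15.

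Single genes separated the times less cleanly than their average. No member had every Midnight library above every Midday library, which was so for 0.267% of all genes tested in the eye. The number of the 8 Midnight libraries above the highest Midday library was 3 in the median and ran from 0 to 7. The lowest Midday value fell in one of the 3 libraries that stood apart for 19 of the 23 genes, and in Midday male 1 alone for 10. No test of Midnight against Midday in the eye is given, since that contrast chose the genes.

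Without the 3 libraries the difference between Midnight and Midday was smaller. Its median over the 23 genes was 0.31, with a range of 0.10 to 0.70. All 23 differences were still above 0, and 5 were still at least 0.4, those of the genes ranked 1, 8, 14, 18 and 19. The rule applied without these libraries selected 6 genes, 5 of them among the 23. A single library mattered too: 9 of the 23 were selected without Midday male 1, and 13 without Midday female 4.

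**Figure D2:**
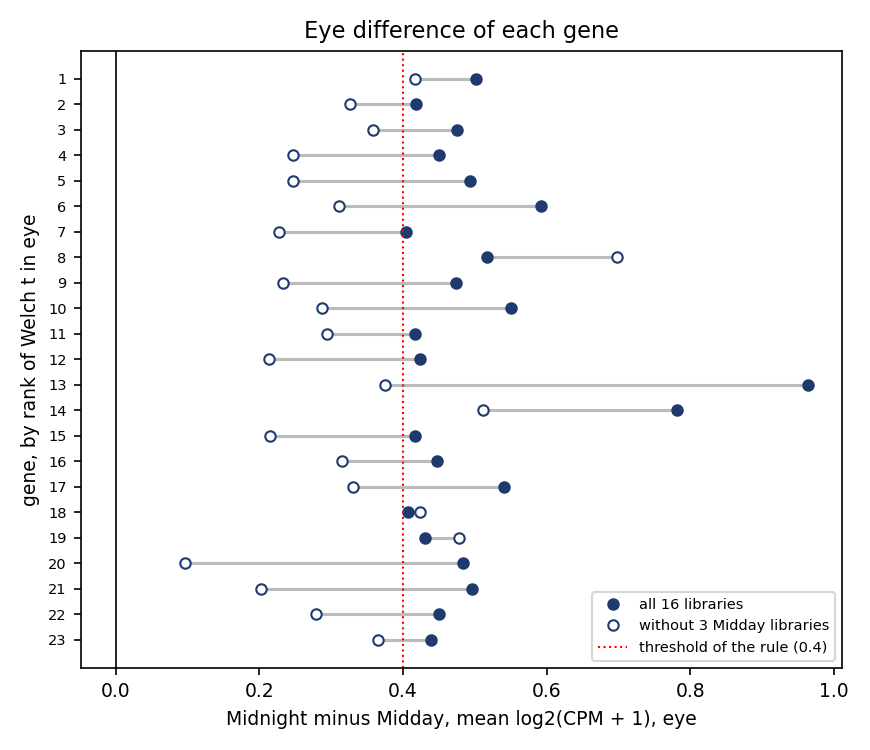
Midnight minus Midday difference of each gene in the eye, in mean log2(CPM + 1), with the genes ordered down the page by rank. Filled points use all 16 libraries and open points leave out the 3 Midday libraries that stood apart, where 5 of the 23 remain at or above the 0.4 threshold.

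The same 3 libraries differed in the RNA they held of genes enriched in other tissues, by lists made from these libraries. Their share of counts in brain-enriched genes was 0.111% to 0.187%, against 0.168% to 0.243% in the other 21 eye libraries. Skin-enriched genes took 0.252% to 0.420% of their counts, against 0.139% to 0.235%, and liver-enriched genes 0.405% to 0.635%, against 0.212% to 0.393%. Mitochondrial genes took 2.22% to 3.13%, against 1.28% to 2.33%, while eye-enriched genes took 4.61% to 10.1%, against 5.75% to 14.5%. All 3 libraries thus had skin-enriched shares above those of the other 21. Male 1 and female 4, with the lowest average levels of the 23 genes, had brain-enriched shares of 0.111% and 0.135%, below the other 21. Female 2, at 0.187%, lay within the range of the other 21. In the other 5 Midday eyes the median liver-enriched share was 0.343%, beside 0.280% at Midnight and 0.279% under ALAN. For skin-enriched genes these medians were 0.190%, 0.169% and 0.172%, and for brain-enriched genes 0.216%, 0.205% and 0.213%, in the same order. Of those 5, Midday male 4 had the lowest level of the 23 genes, 4.41, with shares of 0.168% brain-enriched, 0.235% skin-enriched and 0.393% liver-enriched. The part of these shares in the night-day difference was not tested.

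**Figure D3:**
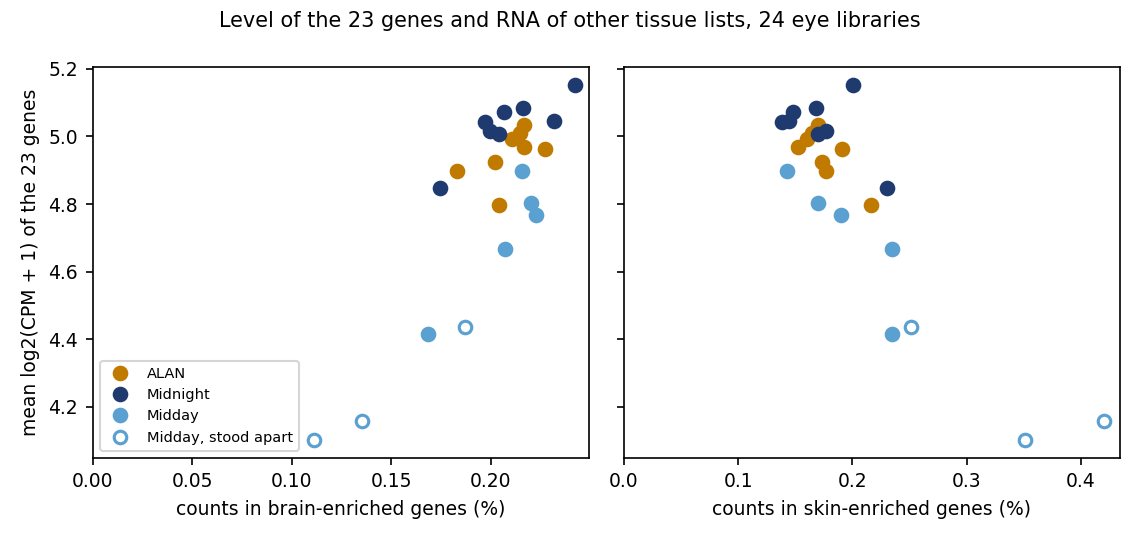
Mean log2(CPM + 1) of the 23 genes against the percentage of counts in brain-enriched genes (left) and in skin-enriched genes (right), 1 point for each of the 24 eye libraries, coloured by treatment. The 3 open points, Midday libraries that stood apart, have brain-enriched shares of 0.111% to 0.187% and skin-enriched shares of 0.252% to 0.420%.

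Genes that are low in the same Midday libraries pass the eye step of the rule through them, so a shared pattern among the Midday libraries is in part set by the choice. The median correlation between pairs of them within a group was 0.07 under ALAN, 0.06 at Midnight and 0.56 at Midday (8 libraries each, 253 pairs). Over the 3176 genes that passed all steps but the one in the eye, it was 0.07, 0.12 and 0.09 in the same order. Without the 3 libraries the Midday value was 0.43 over 5 libraries. These correlations, over libraries that the rule used and that all pairs share, are a description. The gene closest in pattern to the top-ranked one, after the group means were removed, had a correlation of 0.73 with it over the 24 eye libraries. The next were at 0.66 and 0.64, the median was 0.41, and 21 of 22 were positive. The 24 libraries include the 8 Midday libraries, where the genes varied most together, and no such value was computed over the 3176 genes.

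ENSACAG00000012343 had the highest t in the eye. It lies on chromosome 5 (91284413 to 91316690, plus strand) and has 14 exons that sum to 1517 bases. Its lowest, median and highest eye levels were 37.0, 41.4 and 45.7 CPM under ALAN, 39.1, 46.8 and 55.7 CPM at Midnight, and 27.6, 32.0 and 39.6 CPM at Midday. In 5 of 8 ALAN and 7 of 8 Midnight libraries it was above the highest Midday library. It averaged 29.0 ± 1.88 CPM under ALAN, 31.8 ± 5.30 CPM at Midnight and 28.8 ± 2.16 CPM at Midday in brain (SD, n = 8 each). Its highest levels were in ovary, with averages of 84.4 ± 20.5, 95.3 ± 5.93 and 97.3 ± 1.85 CPM in the same order (n = 4 each). Its highest Midnight brain value, 40.4 CPM, was in female 4. Ovary-enriched genes took 1.86% of that library's counts, beside 0.140% to 0.159% in the other Midnight brains. The part of this in the brain average was not tested. The Midnight minus Midday difference in the eye, 0.50, was 0.42 without the 3 libraries that stood apart.

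Both of the widest differences in the eye belonged to genes ranked 13 and 14, singled out after their values were seen. The gene ranked 13, with 6 exons, averaged 15.6 ± 3.41 CPM under ALAN, 16.7 ± 6.88 CPM at Midnight and 9.04 ± 5.40 CPM at Midday (SD, n = 8 each). Its difference of 0.96 between Midnight and Midday was 0.38 without the 3 libraries. The gene ranked 14, with 12 exons on chromosome 6, averaged 28.2 ± 6.71 CPM under ALAN, 29.5 ± 9.68 CPM at Midnight and 18.1 ± 10.8 CPM at Midday. Its difference of 0.78 was 0.51 without them. Neither gene had more than 3 of 8 Midnight libraries above the highest Midday library.

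ALAN eyes were set against Midnight eyes, dissected over the same hours, to compare a lit with a dark night. The low counting class held 1 of 8 ALAN and 7 of 8 Midnight libraries, so treatment and class largely coincide in this contrast. None of the 23 genes was called at an adjusted p under 0.05 (0 of 23 by edgeR's quasi-likelihood test and by DESeq2, against 0.158% of all genes tested by edgeR). At an unadjusted p under 0.05 there were 5, all lower under ALAN, a share of the list to be read against 10.4% of all genes tested. The median log2 change was -0.07, with 8 genes above 0 and 15 below, and its range was -0.47 to 0.50. No gene had every Midnight library above every ALAN library (0.0668% of all genes tested did). The genes were chosen in part for high values in these same Midnight libraries.

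The 23 genes had levels under ALAN that lay nearer to those at Midnight than to those at Midday in 18 cases. The Midnight and Midday means also chose the genes, so these positions are not independent of the choice. Most ALAN eye libraries were of the high counting class, and most Midnight and Midday ones of the low class. For 8 genes the ALAN mean was at or above the Midnight mean, for 15 it lay between the other means, and for 0 it was at or below the Midday mean, with all libraries. On a scale from 0 at the Midnight mean to 100% at the Midday mean, the ALAN mean stood at 16.6% in the median, with a range of -84.7% to 90.2%. Without the 3 Midday libraries that stood apart, the ALAN mean was nearer to Midnight in 15 genes, between the other means in 13 and at or below the Midday mean in 2. In 12 genes all 8 ALAN libraries were above the Midday median, and in 14 genes all 8 Midnight libraries were. Shares over all genes were not computed for these counts. No gene had every ALAN library above every Midday library (0.176% of all genes tested did).

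ALAN against Midday compared a lit night with the day. Of the 23 genes 6 were called, all higher under ALAN, where 2.33% of all genes tested were called higher and 6.68% in either direction. The median log2 change was 0.38 and all 23 changes were above 0, from 0.04 to 0.98. Without the 3 Midday libraries that stood apart, the median was 0.28 and 21 of 23 were above 0, from -0.09 to 1.03. At an unadjusted p under 0.05 there were 15, all higher, beside 27.4% of all genes tested. The genes were chosen in part for low values in these same Midday libraries, so the count is not independent of the choice. Without those 3 libraries 1 gene was called (1.71% of all genes tested). In the fit with a class term 0 were called (0.522% of all genes tested), while the median log2 change was 0.40, with a median SE of 0.20 beside 0.15 without the term. Most Midday libraries were of the low class and most ALAN libraries of the high class, as given above. By DESeq2 10 were called, beside 8.71% of all genes it tested.

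**Figure D4:**
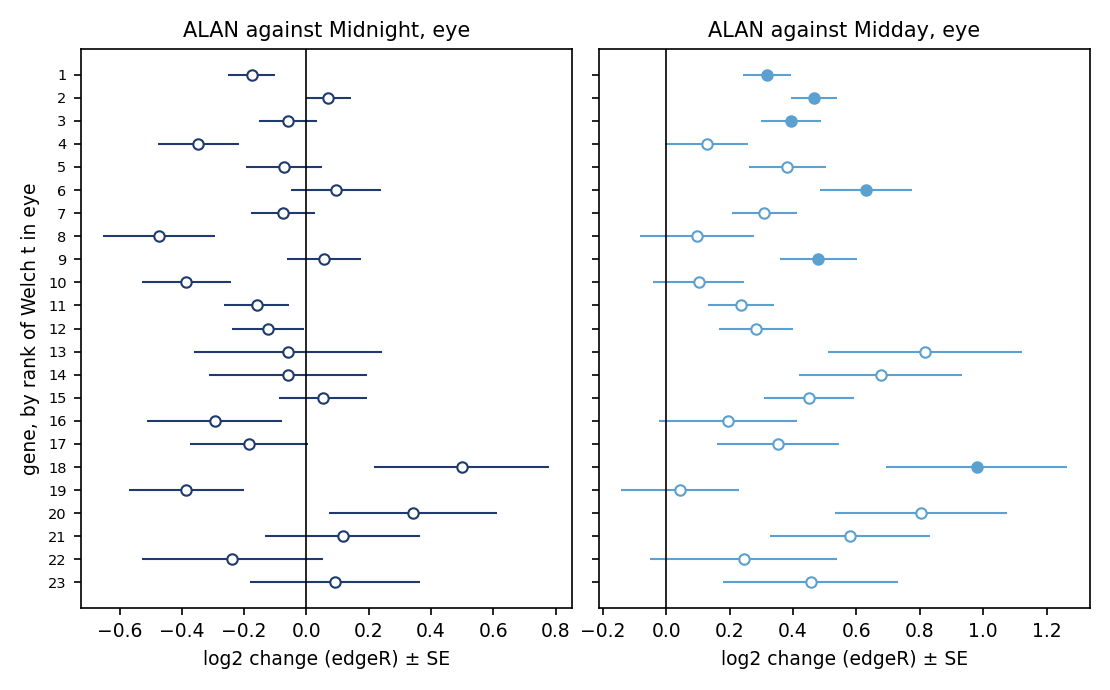
Log2 change ± SE of each gene in the eye by edgeR, for ALAN against Midnight (left) and ALAN against Midday (right), ordered down the page by rank. Filled points passed an adjusted p of 0.05, which 0 genes did on the left and 6 on the right.

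The 6 genes called between ALAN and Midday were those ranked 1, 2, 3, 6, 9 and 18. They were chosen in part for low values in these Midday libraries, so their p-values are not independent of the choice. In the fit with a class term none of them was called. ENSACAG00000012343, ranked 1, had a log2 change under ALAN of 0.32 ± 0.08 (SE; edgeR adjusted p = 0.0175). Its adjusted p by edgeR was 0.145 without the 3 libraries and 0.101 once the fit had a term for the counting class. Against Midnight it had a log2 value of -0.18 ± 0.08 under ALAN (adjusted p = 0.413, edgeR). The gene ranked 2, with 19 exons on chromosome 3, had the smallest adjusted p, 0.00069, with a log2 change of 0.47 ± 0.07 by edgeR. It averaged 144.7 ± 12.7 CPM under ALAN, 139.4 ± 12.4 CPM at Midnight and 104.8 ± 16.7 CPM at Midday (SD, n = 8 each).

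The gene ranked 18, which has a single exon of 3897 bases, had the widest change between ALAN and Midday, 0.98 ± 0.29 (SE, adjusted p = 0.0418, edgeR). It was singled out after its values were seen and chosen in part for low values in these Midday libraries, so this p-value is not independent of the choice. In the fit with a class term it was not called. It averaged 11.6 ± 6.34 CPM under ALAN, 8.30 ± 3.29 CPM at Midnight and 5.86 ± 1.55 CPM at Midday. Its ALAN libraries were the most scattered, and 5 of 8 exceeded the highest Midday library. In ALAN against Midnight it had the highest value of the list, 0.50 ± 0.28 (adjusted p above 0.05, edgeR).

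The genes with the smallest p among those lower under ALAN than at Midnight did not pass the test. ENSACAG00000004041, ranked 10, has 2 exons and lies on a scaffold (6454 to 16381, plus strand). Its lowest, median and highest eye levels were 78.8, 98.7 and 114.4 CPM under ALAN, 110.2, 124.0 and 154.4 CPM at Midnight, and 48.9, 97.3 and 120.0 CPM at Midday. The ALAN and Midnight libraries overlapped between 110.2 and 114.4 CPM, and the log2 value was -0.39 ± 0.14 (SE; edgeR adjusted p = 0.320). ALAN and Midday means, at 96.6 ± 14.2 and 90.4 ± 27.2 CPM, differed by less than their SDs (n = 8 each). Without the 3 libraries that stood apart the Midday mean was 104.6 ± 15.4 CPM, above that under ALAN. The Midnight minus Midday difference, 0.55, was then 0.29, under the threshold of the rule. This gene was far higher in brain than in eye, with a median of 292.4 CPM there against 110.2 CPM.

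ENSACAG00000041517, ranked 4, has 8 exons and lies on another scaffold (481436 to 498840, plus strand). Its highest levels were in testes, with a median of 153.6 CPM, against 9.35 CPM in eye and 13.3 CPM in brain. Its lowest, median and highest eye levels were 7.05, 8.55 and 10.5 CPM under ALAN, 9.27, 11.0 and 13.4 CPM at Midnight, and 4.49, 8.66 and 9.95 CPM at Midday. Its Midnight minus Midday difference, 0.45, was 0.25 without the 3 libraries that stood apart, under the threshold of the rule. The log2 value under ALAN against Midnight was -0.35 ± 0.13 (SE; edgeR adjusted p = 0.335). In the fit with a class term it was -0.20, as it was for ENSACAG00000004041.

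Neither kind of skin had a member called between Midnight and Midday. In dorsal skin 0 of 23 passed by edgeR and by DESeq2 (0.195% of all genes tested by edgeR), and 1 had an unadjusted p under 0.05 (10.9%). The median log2 change was 0.08, with 16 genes above 0, 7 below, and a range of -0.64 to 0.81. It was 0.37 in the fit with a class term and 0.21 without the libraries of that tissue that stood apart. The low class held 6 of 8 Midday and 0 of 8 Midnight libraries of dorsal skin. In ventral skin 0 passed by edgeR and by DESeq2 (0.057% of all genes tested by edgeR), and 2 had an unadjusted p under 0.05 (11.2%), both lower at Midnight. The median there was 0.06, with 13 genes above 0, 10 below, and a range of -0.77 to 1.34. The median was 0.22 without the libraries of ventral skin that stood apart.

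Light at night was also set against the dark night in skin. In dorsal skin 0 of 23 genes passed by edgeR and by DESeq2 (0.0223% of all genes tested by edgeR), 1 had an unadjusted p under 0.05 (11.6%), and the median log2 change was -0.12. In ventral skin 0 of 23 passed by edgeR (1.92% of all genes tested) and 2 of 22 by DESeq2 (4.16% of all genes it tested), and 4 had an unadjusted p under 0.05 (18%). The median was -0.05. The low class held 5 of 8 ALAN and 0 of 8 Midnight libraries of ventral skin. Of the 2 genes that DESeq2 called there, 1 was higher and 1 lower under ALAN. By edgeR the smallest adjusted p there, neither under 0.05, belonged to the genes ranked 20 and 22, singled out after their values were seen. The gene ranked 20 averaged 0.62 ± 0.48 CPM under ALAN and 2.01 ± 1.11 CPM at Midnight, a log2 value of -1.74 ± 0.53 (SE, adjusted p = 0.0826, edgeR). The gene ranked 22 averaged 10.2 ± 7.51 CPM under ALAN and 3.59 ± 2.05 CPM at Midnight, a log2 value of 1.43 ± 0.44 (adjusted p = 0.0912, edgeR). They lay on opposite sides of 0 (n = 8 each).

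**Figure D5:**
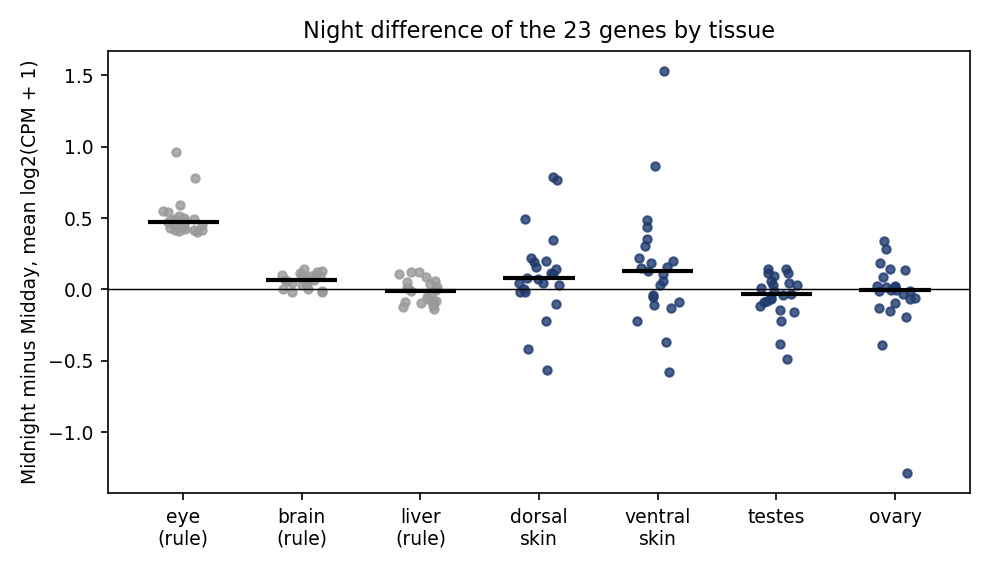
Midnight minus Midday difference of each of the 23 genes in mean log2(CPM + 1), by tissue, with the median as a bar. Grey points are the eye, brain and liver values that chose the genes, and in dark blue are the skins and gonads, whose medians were 0.08 in dorsal skin, 0.13 in ventral skin, -0.03 in testes and close to 0 in ovary on this scale.

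In the gonads edgeR called no gene of the list between Midnight and Midday, and 0% of all genes tested in each gonad. DESeq2 also called 0 members in both, beside 0.0866% of all genes it tested in testes and 0.293% in ovary. In testes 0 members had an unadjusted p under 0.05 (4.73% of all genes tested), the median log2 change was -0.04, and the range was -0.45 to 0.37. In ovary 1 member had an unadjusted p under 0.05 (3.62% of all genes tested), and the median was -0.01, with 10 genes above 0 and 13 below.

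That member was ENSACAG00000006160, ranked 8 in the eye. It has 4 exons and lies on the minus strand of chromosome 2, from 114804953 to 114816835. In ovary it was at 27.6, 29.2, 18.6 and 8.83 CPM in ALAN females 1 to 4 and at 4.72, 15.6, 9.82 and 6.42 CPM in Midnight females 1 to 4. In Midday females 1 to 4 it was at 25.9, 25.3, 14.9 and 23.2 CPM. Of the Midnight ovaries, 3 were below every Midday ovary and 1 was not. The log2 value for Midnight against Midday was -1.30 ± 0.42 (SE; edgeR adjusted p = 1.00), opposite in sign to the eye.

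In the eye the same gene's lowest, median and highest levels were 4.23, 5.81 and 7.04 CPM under ALAN, 4.86, 8.64 and 10.3 CPM at Midnight, and 3.57, 5.32 and 8.36 CPM at Midday. Its highest Midday value was in male 1, where 10 of the 23 genes were lowest. Its Midnight minus Midday difference, 0.52, was larger, at 0.70, without the 3 libraries that stood apart. Under ALAN against Midnight the log2 value was -0.47 ± 0.18 (adjusted p = 0.337, edgeR). In testes all 12 libraries were under 1 CPM. In brain its median was 1.09 CPM, close to the 1 CPM that the rule asked for. Its Midnight brain levels had a median of 0.94 CPM and a highest value of 4.66 CPM, in female 4. Ovary-enriched genes took 1.86% of the counts of that library, as given above. The part of that library in the gene's Midnight minus Midday difference in brain, 0.03, was not tested.

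Males and females were compared over all 3 treatments in the tissues that chose the genes. In the eye 0 of 23 genes were called by edgeR and by DESeq2 (2.73% of all genes tested by edgeR), and 4 had an unadjusted p under 0.05 (16.9% of all genes tested), 2 higher and 2 lower in males. In brain 0 were called (2.48%), with 4 at an unadjusted p under 0.05 (13.3%). In liver 0 were called (13.6%), with 1 at an unadjusted p under 0.05 (29.1%). DESeq2 called 0 in brain and in liver too. The median log2 difference between males and females was -0.02 in eye, 0.03 in brain and 0.01 in liver. Without the libraries that stood apart, 1 gene was called in each of these tissues, beside 3.89% of all genes tested in eye, 2.55% in brain and 11.2% in liver.

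Over both sexes together, the night-day difference of the eye chose the genes, so its presence in each sex is in part set by that choice. This difference was present in the averages of both sexes. It was 0.57 in males and 0.48 in females in the median, ran from -0.01 to 1.08 in males and from 0.09 to 0.91 in females, and was above 0 in both sexes for 22 of 23 genes. Averaged over the list, males were at 5.03 ± 0.131 at Midnight and 4.49 ± 0.297 at Midday, on the log2(CPM + 1) scale, and females at 5.03 ± 0.0300 at Midnight and 4.57 ± 0.342 at Midday (SD, n = 4 each). Without the libraries that stood apart, the Midday average was 4.62 in males (n = 3) and 4.85 in females (n = 2), nearer to Midnight in both. The test of a different night-day change in males and females called 0 of 23 genes, by edgeR and by DESeq2, and 0% of all genes tested by edgeR. At an unadjusted p under 0.05 there were 2 (5.74% of all genes tested). For ALAN minus Midnight, males against females, it again called 0 of 23 by both tools and 0% of all genes tested, with 1 at an unadjusted p under 0.05 (3.47%).

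Most of the list was more abundant in another tissue than in the eye. The eye was the tissue of highest median level for 1 of the 23, dorsal skin for 1, brain for 12, testes for 6 and ovary for 3. The rule itself left out genes far higher in eye than in brain or liver. Shares over the 3176 genes that passed all steps but the eye were not computed for these counts. Whether the counts are particular to the list was therefore not tested. The ratio of the eye median to the brain median was 0.71 in the median and ran from 0.27 to 5.67, within the limit of 8 set by the rule. It was under 1 for 60.9% of the list and for 54.1% of the 3176 genes that passed all steps but the eye. The ratio of eye to liver was 2.97 in the median, beside 2.345 over the 3176 genes. It was under 1 for 3 of the 23 and for 12.8% of the 3176. Eye medians ran from 4.88 to 340.6 CPM, and CPM is not scaled by gene length, so these levels are not compared between genes. In testes and in ovary, 20 of the 23 had a median of at least 1 CPM, as did 22 in each kind of skin.

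On the genome, as the count table gives it, 11 of the 23 genes lay on numbered chromosomes: 3 on chromosome 1, 2 on chromosome 2, 1 on chromosome 3, 3 on chromosome 4, and 1 each on chromosomes 5 and 6. The other 12 lay on 12 different scaffolds. The share on scaffolds was 52.2%, beside 45.5% of the 3176 genes. Their exons summed to 1752 bases in the median, from 375 to 9907, beside 1867.5 in the 3176. They had 9 exons in the median, as had the 3176. A single exon was found in 2 (8.70%), beside 3.37% of the 3176 and 6.83% of all genes tested in eye.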

How the data were processed

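The deposited table holds raw read counts per Ensembl gene ID, with coordinates and a length in bases. The submitters' processing notes name STAR 2.7.11a, Trimmomatic, FastQC, Subread and featureCounts, without their roles. Not given in the sources used here are the genome build, annotation, strand setting and use of multi-mapping reads, so overlapping, antisense and closely related genes may share reads. A RefSeq gene table (assembly rAnoCar3.1, 27148 rows) matched 0 IDs, so no names or sequences are given.

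CPM were computed from the deposited counts and the column sums. Each tissue had its own robust quasi-likelihood fit in edgeR 4.0.16 (R 4.3.3), after TMM scaling and a filterByExpr filter by treatment and sex. The model held treatment and sex, and tests of sex by treatment gave every combination its own mean. Benjamini-Hochberg adjustment ran over all genes tested in a tissue, and calls were made at an adjusted p under 0.05. DESeq2 1.42.0 was an alternative, as were the replicate number as a block, no filter, the groups compared alone, the counting class as a term, each library left out and, for the rule, TMM scaling, another pseudocount and the low class alone. Libraries stood apart where their median correlation with the tissue's other libraries was more than 5 median absolute deviations low, and fits that omit them were added after seeing the data. Scripts were tested on simulated data.

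The members and lists were chosen with earlier results of these data known. Tissue-enriched lists hold genes of at least 5 CPM and 8-fold above every other tissue. IDs are printed for the highest t of the rule in the eye and the smallest p for Midnight against Midday in skins and gonads. They are also printed for the 2 smallest p among genes lower in ALAN than Midnight eyes. All libraries came from 24 animals, 1 library per tissue and animal. Python 3.11.15, pandas 2.3.3 and matplotlib 3.10.9 were used.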

Additional observations from a re-analysis of the deposited data

Results flagged for a closer look

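In 36 groups of libraries, each within a single tissue and treatment, the average of the 23 genes was examined. A library far from the rest of its group was looked for, which chance gives in about 1 in 20 groups. There were 3. In ovary, ALAN female 2 stood at 4.756 on the log2(CPM + 1) scale, with the nearest ALAN ovary at 4.21. In ventral skin, Midnight female 1 stood at 3.1059, with the nearest at 3.54. In dorsal skin, Midday female 3 stood at 3.04, with the nearest at 3.62. No eye library was among them.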

How the results depend on the processing

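The choice of genes depended on the scaling and on single libraries. Of the 23, 14 were selected with TMM library sizes (19 in all) and 15 with eye libraries of the low counting class alone (16 in all). Without the 3 eye libraries that stood apart, 5 were selected (6 in all). Brain and liver libraries that stood apart, brain Midnight female 4 among them, were kept in that choice. With single eye libraries left out, 9 to 23 of them were selected (9 without Midday male 1 and 13 without Midday female 4). Read as an eye median under 8 times either brain or liver, the rule gave 53 genes, among them the 23.

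The count of 6 genes called for ALAN against Midday in eye was 10 by DESeq2, 2 with these groups fitted alone, 0 with the counting class as a term, 3 with the replicate block and 1 without the libraries that stood apart. It ran from 4 to 12 with single libraries left out, with 12 without Midday female 1 and 10 without Midday female 3. ENSACAG00000012343 no longer passed in that comparison in 3 of these fits, at log2 values of 0.32, 0.39 and 0.26. In ventral skin, ALAN against Midnight, DESeq2 called 2 and the fit without the libraries that stood apart 1. Between the sexes, the fit without those libraries called 1 in eye, in brain and in liver. Single omissions gave 0 to 1 in eye (1 without Midday female 2) and 0 to 1 in liver (1 without ALAN female 2 or Midday male 1). ENSACAG00000012343 kept its sign for ALAN against Midday in all the fits tried. Of 13 medians over the list, 6 had another sign under some alternative: Midnight against Midday in ventral skin (-0.04 to 0.22), testes (-0.05 to 0.01) and ovary (-0.12 to 0.01), and males against females in eye (-0.03 to 0.03), brain (-0.01 to 0.05) and liver (-0.08 to 0.08). The class term could not be fitted in liver and testes, whose low class was the ALAN group, and brain held 1 class.

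Each animal had 1 treatment, so equal replicate numbers do not pair treatments. Deviations of same-numbered eye libraries correlated at -0.47 to 0.31, with a median of -0.10. The median SE of a log2 change over the list for Midnight against Midday was 0.30 in dorsal skin, 0.32 in ventral skin, 0.18 in testes and 0.37 in ovary, beside 0.15 in eye. Precision was thus lower than in the eye in all of them, and least so in testes.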
